A study of Mus musculus with 14 samples.

Results

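Expression of 10 genes of blood vessels was examined in mouse brown adipose tissue. They are the growth factor gene Vegfa, the receptor genes Kdr, Flt1, Tie1 and Tek, the endothelial adhesion genes Pecam1 and Cdh5, and the Notch pathway genes Dll4, Notch1 and Nrarp. They were matched by symbol to the Ensembl identifiers of the deposited table, and all 10 were found among its 35275 genes. All 10 also passed the filter on low values, which 13079 genes passed in all. Nrarp was chosen by its measured values: it has one of the strongest differences between the knockout effects at 22 °C and 30 °C. Its values are therefore given as a description with no test, and counts of genes that passed a test are over the other 9.

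The tissue came from mice of strain C57BL/6 aged 8 weeks. All animals carried floxed Lrpprc alleles (LrpprcFF), and the knockouts carried the Ucp1-Cre transgene as well. Lrpprc encodes an RNA-binding protein of mitochondria that stabilises mitochondrial transcripts. There were 4 knockouts and 4 controls at room temperature (22 °C) and 3 knockouts and 3 controls at thermoneutrality (30 °C). Each library has a title of its own, but the labels do not state that each came from a separate mouse. The libraries are called animals here, and p-values measure the spread between them. The Ucp1 promoter drives Cre in brown and beige adipocytes, so that the endothelium is not a target of the deletion in this design. Although brown adipocytes are the labelled cell type, RNA was taken from homogenised tissue. In bulk RNA of this kind, fewer cells of a type and less RNA per cell cannot be told apart.

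Brown fat is among the most densely vascularised tissues, since heat production needs oxygen, fuel and a way to carry heat off. VEGF-A, secreted by adipocytes and other cells, acts on the endothelial receptor VEGFR2, encoded by Kdr, while VEGFR1, encoded by Flt1, binds it tightly and acts largely as a decoy. Signalling through VEGFR2 raises the Notch ligand DLL4 in sprouting tip cells. DLL4 activates NOTCH1 in neighbouring stalk cells, where the cleaved receptor joins the DNA-binding protein RBPJ and turns on targets such as Hes1, Hey1 and Nrarp. NRARP in turn binds the Notch complex and limits its signal.

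As a check of the labels, Lrpprc stood at 23.2 to 47.1 FPKM (fragments scaled to transcript length and library depth) in the controls at 22 °C and at 9.34 to 12.5 FPKM in the knockouts. At 30 °C it stood at 28.6 to 31.0 FPKM in controls and 5.95 to 9.91 FPKM in knockouts, so that no knockout overlapped any control. All 8 animals at 22 °C had 14.5 to 23.2 FPKM of the Y-linked gene Ddx3y and at most 0.0141 FPKM of Xist, and all 6 animals at 30 °C had 9.01 to 18.4 FPKM of Xist and at most 0.0244 FPKM of Ddx3y. Temperature and sex therefore cannot be told apart, neither between temperatures within a genotype nor in any difference between the knockout effects at 22 °C and 30 °C, that of Nrarp included. Spacing of the lowest values gave depths of 15.9 to 21.3 M fragments per library. Markers of adipocytes were abundant: the 10 listed genes summed to 7974 FPKM or more in every library. Of these 10, 5 were lower in knockouts at 30 °C and 2 at 22 °C, beside 5.28% and 1.06% of all genes. Markers of 2 other cell types moved with genotype at 30 °C. The 12 macrophage genes summed to 907 to 2584 FPKM in the knockouts and 140 to 464 FPKM in the controls, and 11 of the 12 passed the test as higher. Of 9 tested fibroblast and preadipocyte genes, 6 were higher in knockouts. Over all genes 8.82% were higher at 30 °C. The sum of 12 skeletal muscle genes ran from 39.4 to 15215 FPKM within the controls at 30 °C alone. The part of these other cells in the results below was not tested.

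One library stood apart in the vascular genes. A score for endothelial content was formed as the mean log2 level of 30 other endothelial genes, such as Emcn, Eng and Robo4. At 22 °C it was 3.41, 3.63 and 3.63 in controls 1 to 3 and 4.48 in control 4, against 3.56 to 3.94 in the knockouts. At 30 °C it was 4.30 to 4.33 in controls and 4.27 to 4.48 in knockouts. Control 4 therefore lay at the level of the 30 °C groups. Controls 3 and 4 also have titles of another form than the rest (R in place of E), and the labels do not say what the letter means. Values of the 10 genes at 22 °C are given with and without control 4. Without it none of the other endothelial genes, Notch genes or VEGF genes listed below passed at 22 °C, as with it.

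Levels differed widely between the genes. On the FPKM scale, which is per transcript length, Vegfa was the highest of the 10, with group means of 161 to 245 FPKM. Cdh5, which encodes the junction protein VE-cadherin, had means of 54.3 to 83.5 FPKM, and Pecam1, which encodes the adhesion molecule CD31, 36.2 to 57.7 FPKM. Tie1 had means of 39.5 to 71.2 FPKM, Kdr 30.4 to 37.0 FPKM, Flt1 18.7 to 29.7 FPKM and Tek 12.0 to 15.3 FPKM. The Notch genes were lower, with means of 5.51 to 16.9 FPKM for Dll4 and 6.08 to 14.7 FPKM for Notch1. Nrarp covered the widest range of the 10, from a mean of 2.94 FPKM to one of 55.0 FPKM.

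**Figure D1:**
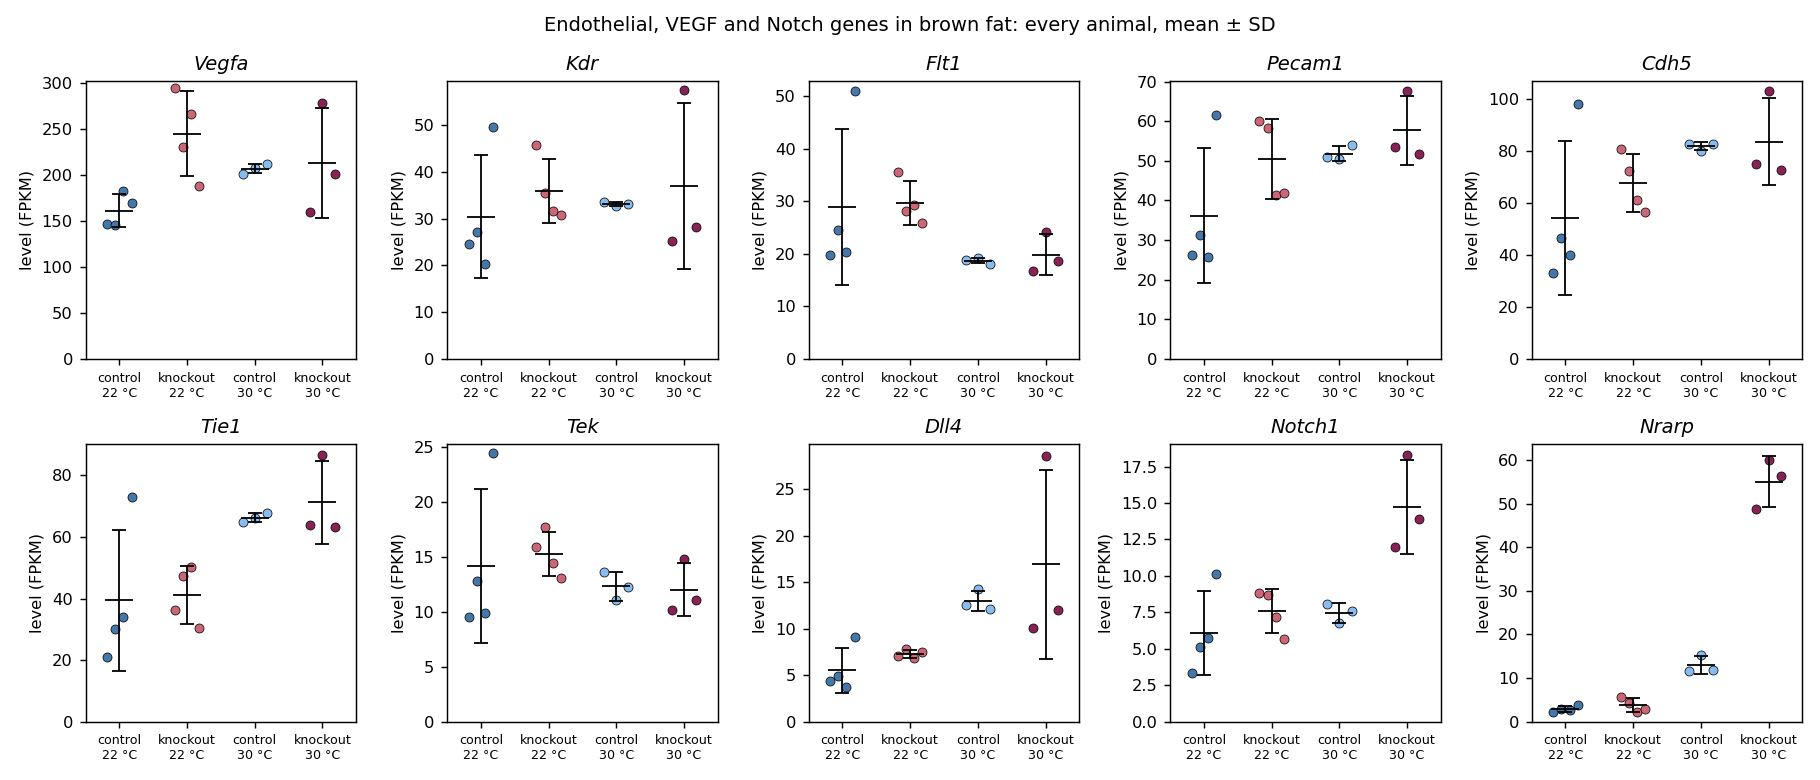
FPKM (vertical axes, starting at 0) of the 10 genes in each animal, with 4 animals per group at 22 °C and 3 at 30 °C; points are animals, and bars give the mean ± SD. Control 4 is the highest of the 4 controls at 22 °C in every gene but Vegfa, and the 3 knockouts at 30 °C stand above all other animals in Nrarp and Notch1.

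Nrarp is described first, since it departs most from the others. It is a short gene with 1 transcript in the GENCODE M21 annotation, so its fragments could be recovered as whole numbers. The 250 bases before its start on mouse chromosome 2 (chr2:25180508-25180757, plus strand, GRCm38.p6, RefSeq promoter table) are shown because this is the sequence next to the start of the gene with the widest range of levels. The stretch was searched on both strands for TGGGAA, the core of the site bound by RBPJ, and for ACGTG, the core of the hypoxia response element. Capitals mark the letters that match either motif.
Nrarp upstream: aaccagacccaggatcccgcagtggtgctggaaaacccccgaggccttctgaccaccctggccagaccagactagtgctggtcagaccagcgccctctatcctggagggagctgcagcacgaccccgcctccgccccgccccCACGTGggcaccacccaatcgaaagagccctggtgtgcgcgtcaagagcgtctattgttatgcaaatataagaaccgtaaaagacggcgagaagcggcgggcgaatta

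The capitals mark 2 overlapping ACGTG matches, 1 on each strand, which make up a single stretch. No TGGGAA lies in this window. Of 32851 such windows, 21.6% held TGGGAA and 16.6% held ACGTG. Of the 8 genes among the 10 with an entry, 3 held TGGGAA (Vegfa, Kdr and Tie1) and 2 held ACGTG (Vegfa and Nrarp). These matches describe letters and are not evidence of binding.

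In the controls at 22 °C, Nrarp stood at 2.32, 2.97, 2.66 and 3.81 FPKM, and in the knockouts at 5.69, 4.36, 2.34 and 2.97 FPKM. These 8 animals overlapped, and their fragments numbered 96 to 275 per library. At 30 °C the controls stood at 11.7, 15.3 and 11.9 FPKM, above every animal at 22 °C. The knockouts at 30 °C stood at 48.7, 60.0 and 56.4 FPKM, with 2595 to 2999 fragments per library against 564 to 761 in their controls, and no value of the 2 groups overlapped. The order of the group levels was thus 22 °C control, 22 °C knockout, 30 °C control and 30 °C knockout, of which only the first pair overlapped.

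The fold changes below compare FPKM scaled between libraries, on the scale log2(scaled FPKM + 1), with the standard error (SE) of limma's model over all 14 animals. On this scale the Nrarp knockout-to-control difference was 1.72 (SE 0.21) at 30 °C, a ratio of 3.29, and 0.03 (SE 0.18) at 22 °C, or 0.11 (SE 0.19) without control 4. The knockout effect at 22 °C minus that at 30 °C was -1.69 (SE 0.27). Ordered by limma's unadjusted p for that comparison, and not by size, Nrarp held rank 5 of 13079 genes. The genes just before it were Clstn3, with a difference of 1.97, and Scamp5, with -1.0, and those just after it were Krt8, with 2.30, and Eya2, with -1.91. Nrarp was chosen by the difference between its knockout effects, so its rank and the following range are descriptions and no support. Leaving out any 1 animal gave Nrarp a difference of -1.86 to -1.54. Relative to the endothelial score, its mean log2 level was -1.68 and -1.64 in the 22 °C groups, -0.44 in the 30 °C controls and 1.20 in the 30 °C knockouts.

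The genes with the pattern most like Nrarp were sought by Pearson's r over the 14 animals, after the mean of each temperature was taken out, among 8975 genes. They were Odc1 (r = 0.93), which encodes the first enzyme of polyamine synthesis, Ptger4 (r = 0.93), which encodes a receptor of prostaglandin E, and Hcn2 (r = 0.93), which encodes a cation channel. The means of controls and knockouts at 30 °C were 22.5 and 47.5 FPKM for Odc1, 3.37 and 12.1 FPKM for Ptger4 and 2.30 and 39.5 FPKM for Hcn2. These are descriptions across libraries that share their scaling. Among the other 9 vascular genes Notch1 had r = 0.69, and the remaining 8 had r of -0.29 to 0.08. With the temperature means taken out, most of the spread of Nrarp is its gap between genotypes at 30 °C. These r therefore largely restate which genes share that gap and are no separate support.

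The first comparison asks what loss of Lrpprc did to the vascular genes at 22 °C. None of the 9 genes passed the test (adjusted p under 0.05, limma with Benjamini-Hochberg adjustment over all genes), and none did at an unadjusted p under 0.05. Over all genes 1.97% passed, 0.91% as higher and 1.06% as lower. The knockout and control ranges overlapped for all 9, where 9.38% of all genes had ranges that did not. The median of the 9 differences was 0.09 on the log2 scale, beside 0.00 over all genes tested.

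Vegfa, the ligand of the pathway, stood at 147, 146, 183 and 169 FPKM in the controls at 22 °C and at 295, 230, 267 and 188 FPKM in the knockouts. In these deposited values every knockout lay above every control, but after scaling between libraries the ranges overlapped. The scaled difference was 0.28 (SE 0.15, adjusted p = 0.402, limma), with a 95% interval of -0.05 to 0.61, and it was again 0.28 without control 4 (adjusted p = 0.444). Without scaling it was 0.59 (adjusted p = 0.0252), where the median of all genes also moved up, to 0.24. Whether Vegfa passed in these knockouts thus depends on the scaling. Its difference stayed positive with other scalings, at 0.43 with equal totals and 0.48 with quantile normalization, and passed with neither (adjusted p = 0.151 and 0.213).

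Pecam1 shows the weight of control 4. The controls stood at 26.1, 31.4, 25.7 and 61.5 FPKM, the last being control 4, and the knockouts at 60.2, 58.4, 41.5 and 41.9 FPKM. With all animals the difference was 0.25 (SE 0.21, adjusted p = 0.622), and without control 4 it was 0.50 (adjusted p = 0.0930). Flt1 stood at 19.8, 24.5, 20.4 and 51.0 FPKM in controls and at 35.6, 28.1, 29.4 and 25.9 FPKM in knockouts. Its difference was -0.16 (SE 0.22, adjusted p = 0.775), and 0.12 (adjusted p = 0.672) without control 4.

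Tie1 and Tek, which encode the TIE1 and TIE2 receptors of the angiopoietin system, changed sign in the same way. Their differences were -0.11 (SE 0.26) and -0.09 (SE 0.21) with all animals, and 0.20 and 0.17 without control 4. Cdh5 had a difference of 0.13 (SE 0.24), and 0.43 without control 4, while Kdr had 0.00 (SE 0.25) and 0.24. All 9 differences were above 0 without that animal, and still none of the 9 passed the test (adjusted p for these 4 genes 0.154 to 0.647).

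For the Notch ligand, Dll4 stood at 4.39, 4.86, 3.74 and 9.06 FPKM in the controls at 22 °C and at 7.06, 7.85, 6.84 and 7.45 FPKM in the knockouts. Every knockout lay above controls 1 to 3 and below control 4. The difference was 0.15 (SE 0.26, adjusted p = 0.820), with an interval of -0.40 to 0.71, and 0.37 (adjusted p = 0.496) without control 4. Notch1 stood at 3.34, 5.09, 5.76 and 10.1 FPKM in controls and 8.80, 8.70, 7.21 and 5.65 FPKM in knockouts, with a difference of 0.09 (SE 0.21, adjusted p = 0.883), and 0.31 (adjusted p = 0.370) without control 4.

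**Figure D2:**
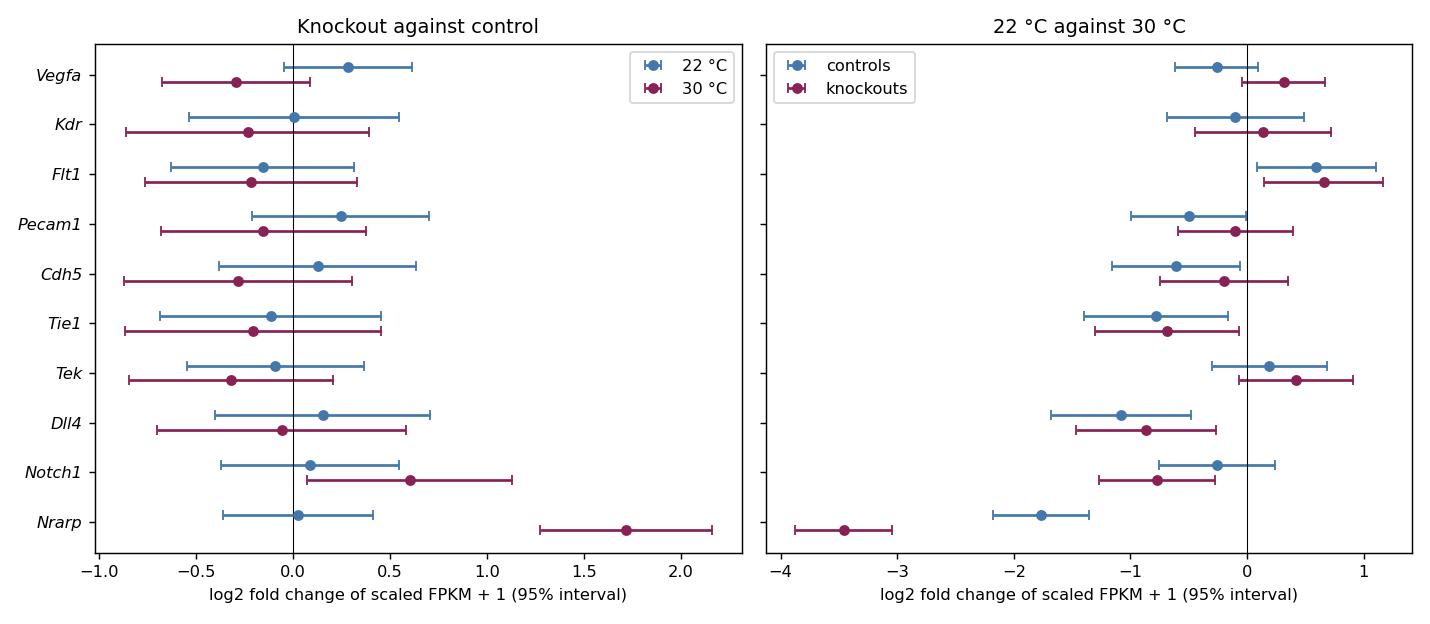
Log2 fold changes of scaled FPKM + 1 with 95% intervals (horizontal axes) for the 10 genes: knockout against control at each temperature on the left, 22 °C against 30 °C in each genotype on the right. The intervals of the endothelial genes span 0 in both knockout comparisons, and Nrarp, whose values chose it and for which no test is read, lies at 1.72 in knockouts at 30 °C.

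At 30 °C, the same comparison asks about knockouts in brown fat with little demand for heat. Again none of the 9 genes passed, where 14.1% of all genes did, 8.82% as higher and 5.28% as lower. At an unadjusted p under 0.05 it was 1 of the 9, Notch1. Ranges of scaled values did not overlap for 2 of the 9, Notch1 higher and Cdh5 lower, beside 36.8% of all genes. For Cdh5 the gap was narrow, from 85.9 in the highest knockout to 86.1 in the lowest control. In deposited values the Cdh5 ranges overlapped, with controls at 82.5, 79.9 and 82.6 FPKM and knockouts at 75.0, 103 and 72.7 FPKM. The median of the 9 differences was -0.22, and over all genes 0.06.

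Notch1 stood at 8.08, 6.74 and 7.60 FPKM in the controls at 30 °C and at 12.0, 18.3 and 13.9 FPKM in the knockouts. All 3 knockouts exceeded every other animal of the study in these deposited values. The difference was 0.60 (SE 0.25, adjusted p = 0.125), with an interval of 0.07 to 1.13. It passed the test without scaling (0.88, adjusted p = 0.0246), with sample weights (0.57, adjusted p = 0.0254), with the endothelial score as a covariate (0.52, adjusted p = 0.0154) and in a fit to the 2 groups alone (adjusted p = 0.0494). Leaving out any 1 animal left it between 0.47 and 0.71 and did not make it pass. Cdh5 also passed with the endothelial score as a covariate (-0.38, adjusted p = 0.0202). That score includes Sox17 and Cldn5, which were higher in these knockouts, as given below. Its mean at 30 °C was 4.32 in controls and 4.39 in knockouts. The slope of this covariate leans on control 4 at 22 °C, whose score of 4.48 stood apart from the other controls there. The part of these genes and of that animal in the Notch1 and Cdh5 calls was not tested.

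Dll4 stood at 12.5, 14.2 and 12.1 FPKM in the controls at 30 °C and at 10.1, 28.6 and 12.0 FPKM in the knockouts. Knockout 2 alone was high, and the other 2 lay below every control. The difference was -0.06 (SE 0.30, adjusted p = 0.924), and -0.46 (adjusted p = 0.199) without knockout 2. The same animal was high in Kdr, where knockouts stood at 25.3, 57.4 and 28.2 FPKM and controls at 33.6, 32.8 and 33.1 FPKM. The Kdr difference was -0.23 (SE 0.29, adjusted p = 0.656), and -0.57 (adjusted p = 0.170) without it.

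Vegfa at 30 °C stood at 202, 208 and 212 FPKM in controls and at 160, 279 and 201 FPKM in knockouts, so that the knockouts scattered on both sides of closely spaced controls. Its difference was -0.29 (SE 0.18, adjusted p = 0.308). The endothelial identity genes also had small negative differences on the scaled values, of -0.15 (SE 0.24) for Pecam1 and -0.28 (SE 0.27) for Cdh5. For the receptors they were -0.22 (SE 0.25) for Flt1, -0.21 (SE 0.31) for Tie1 and -0.32 (SE 0.24) for Tek. Without scaling 8 of the 9 differences were above 0, with a median of 0.07, beside a median of all genes of 0.31. Apart from Tek, which stayed negative, the sign of these differences therefore rests on whether the libraries were scaled. Their lower limits, down to -0.87 for Cdh5, do not show that the groups are alike.

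**Figure D3:**
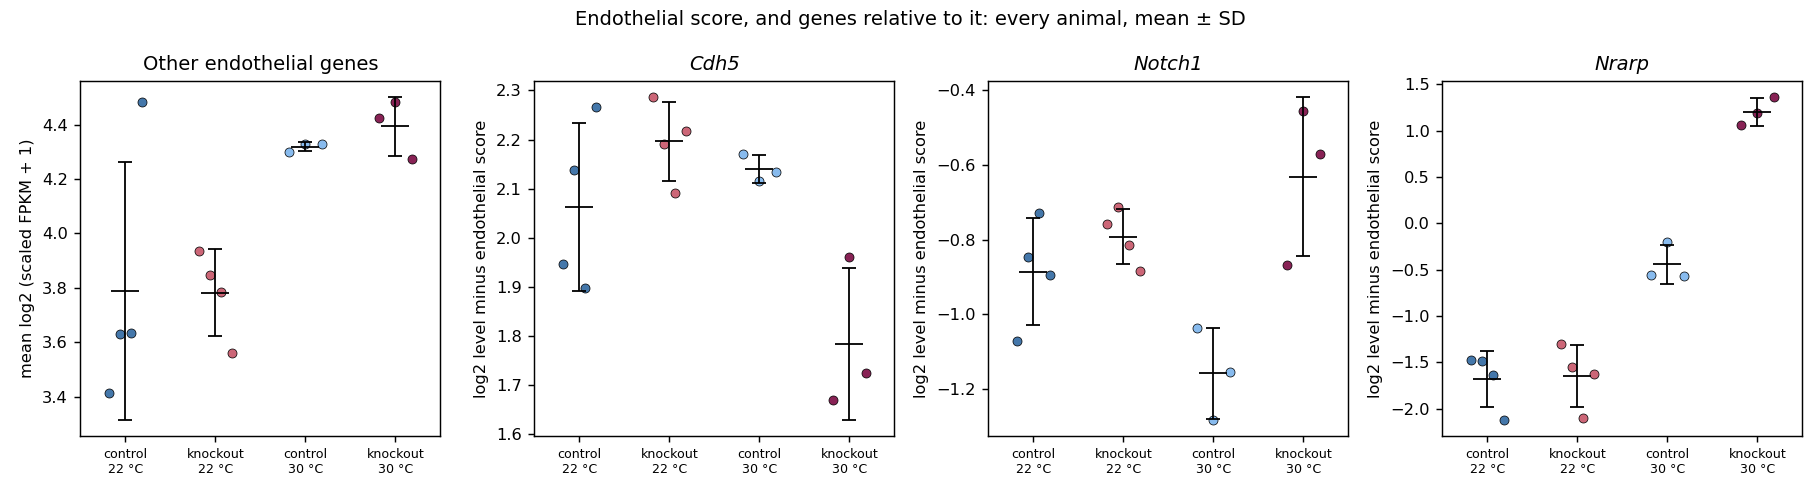
The endothelial score, as mean log2(scaled FPKM + 1) of 30 genes, and Cdh5, Notch1 and Nrarp as log2 level minus that score (vertical axes), in each animal with the mean ± SD. Nrarp lies from 1.06 to 1.36 above the score in the 3 knockouts at 30 °C and below it in all other animals.

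The difference between the knockout effects at the 2 temperatures was tested directly. It compares the sexes as much as the temperatures. None of the 9 genes passed, as no gene of the table did (0% of 13079 with limma, and 1694 at an unadjusted p under 0.05). That count over all genes depends on the setting. It was 6 without scaling, 13 with GC content removed, 17 with the endothelial covariate and 213 with sample weights. Without knockout 2 at 30 °C it was 135. None of the 9 was among them. One gene of the 9 reached an unadjusted p under 0.05, Vegfa, with a difference of 0.58 (SE 0.23, adjusted p = 0.319). It was higher in knockouts at 22 °C and lower at 30 °C on the scaled values. For Notch1 the difference was -0.52 (SE 0.33, adjusted p = 0.543), in the direction of Nrarp, and for Dll4 it was 0.21 (SE 0.39, adjusted p = 0.861).

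Other genes of the pathways were taken from lists, and their counts at 30 °C are read against the 8.82% higher and 5.28% lower of all genes. Of 11 tested Notch target genes 2 were higher in knockouts and none lower, with a median difference of 0.06. Hes1, which encodes a repressor that is a classical direct Notch target, stood at 17.8, 26.7 and 20.8 FPKM in controls and at 71.0, 77.5 and 66.7 FPKM in knockouts (1.40, SE 0.22, adjusted p = 0.00230). It passed without any 1 of the 6 animals. Sox17, which encodes an arterial transcription factor, stood at 17.8, 14.3 and 16.7 FPKM in controls and at 91.5, 52.8 and 52.6 FPKM in knockouts (1.61, SE 0.38, adjusted p = 0.0135), but did not pass without knockout 1 (1.33, adjusted p = 0.0667) or without control 2 (1.54, adjusted p = 0.0539).

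The other 9 targets did not pass, and 8 of the 11 differences were above 0. Hey1, a target gene active in endothelium, had 0.31 (SE 0.16, adjusted p = 0.236), with ranges that did not overlap, and passed without scaling (0.56, adjusted p = 0.0310). Heyl, which is also active in the mural cells around vessels, had 0.04 (SE 0.16, adjusted p = 0.911). At 22 °C none of the 11 targets passed in knockouts, with 0.18 (SE 0.19, adjusted p = 0.706) for Hes1 and -0.07 (SE 0.33, adjusted p = 0.944) for Sox17. The difference between the knockout effects was -1.22 (SE 0.29, adjusted p = 0.179) for Hes1 and -1.68 (SE 0.50, adjusted p = 0.213) for Sox17, so that it did not pass for either.

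Of 7 tested other Notch ligands and receptors none passed in either knockout comparison. At 30 °C the endothelial receptor gene Notch4 had a difference of 0.11 (SE 0.29, adjusted p = 0.842) and the ligand gene Jag1 -0.07 (SE 0.13, adjusted p = 0.779). Of 21 genes of the signalling machinery 2 were higher and 1 lower at 30 °C, with a median of 0.20. The DNA-binding partner Rbpj had 0.38 (SE 0.11, adjusted p = 0.0380), Dtx2, which encodes a ubiquitin ligase, 0.56 (SE 0.16, adjusted p = 0.0313), and Aph1a, which encodes a subunit of the secretase that cleaves Notch, -0.45 (SE 0.12, adjusted p = 0.0273). Leaving out 1 animal gave 0 to 5 calls on this list. The count was 0 without knockout 1 or 3 or control 1 or 2, 1 without control 3, and 5 without knockout 2. Without scaling 14 of the 21 were higher and none lower, where 4571 of the 13079 genes passed in either direction.

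**Figure D4:**
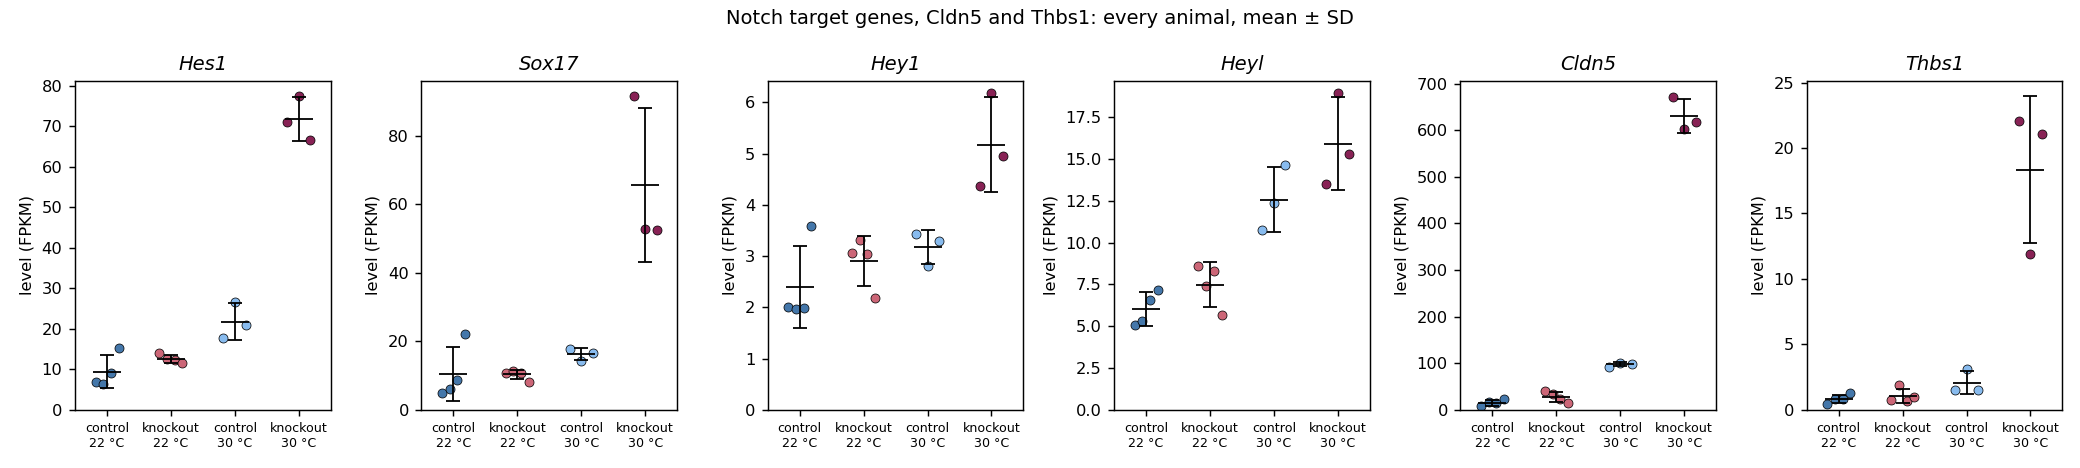
FPKM (vertical axes, starting at 0) of the Notch targets Hes1, Sox17, Hey1 and Heyl, of Cldn5 and of Thbs1 in each animal, with the mean ± SD. Knockouts at 30 °C stand clear of all other animals in Hes1, Sox17, Hey1, Cldn5 and Thbs1 and overlap the controls at 30 °C in Heyl.

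Of the 30 other endothelial genes 2 were higher in knockouts at 30 °C and none lower, with a median difference of -0.02. One of them was Sox17, which is on both lists. The other was Cldn5, which encodes the tight junction protein claudin-5, at 92.3, 100.5 and 99.0 FPKM in controls and 673, 603 and 618 FPKM in knockouts (2.39, SE 0.34, adjusted p = 0.00119). At 22 °C Cldn5 had means of 14.8 FPKM in controls and 27.3 FPKM in knockouts (0.55, SE 0.29, adjusted p = 0.397). The difference of the effects was -1.84 (SE 0.45, adjusted p = 0.179). Without knockout 1 or control 2 the count for this list fell to 1, with Cldn5 remaining. The steep change in Cldn5 thus stood beside a score of all 30 genes that overlapped between the groups.

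Among 11 other VEGF and angiopoietin genes 2 were lower in knockouts at 30 °C and none higher. Vegfb, whose product binds VEGFR1, fell from a mean of 296 FPKM to 224 FPKM (-0.70, SE 0.13, adjusted p = 0.00462). Angptl2, which encodes a secreted protein related to the angiopoietins, fell from 82.7 to 49.2 FPKM (-1.03, SE 0.18, adjusted p = 0.00327). Angpt2, which encodes the angiopoietin that opposes TIE2 signalling in many settings, was near 1 FPKM and had a difference of -0.01 (SE 0.16, adjusted p = 0.976). None of the 11 passed at 22 °C.

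Of 13 tested secreted inhibitors and other angiogenic factors 5 were higher at 30 °C and none lower. Thbs1, which encodes the angiogenesis inhibitor thrombospondin-1, rose from a mean of 2.05 ± 0.89 to 18.4 ± 5.59 FPKM (SD, n = 3 each; 2.40, SE 0.27, adjusted p = 0.000319, limma). Its difference between the knockout effects was -2.38 (SE 0.36, adjusted p = 0.0521), which did not pass. Of 12 other settings of the processing it passed under 7 (adjusted p 0.0173 to 0.0489) and not under 5 (0.0505 to 0.167). Ccn1, which encodes a matrix protein that promotes angiogenesis, had 2.15 (SE 0.48, adjusted p = 0.0112), and Col18a1, whose collagen gives rise to endostatin, 1.61 (SE 0.25, adjusted p = 0.00219). At 22 °C, 2 of the 13 were higher, beside 0.91% of all genes. They were Fgf21 (2.08, SE 0.47, adjusted p = 0.0407) and Fgf1 (0.71, SE 0.16, adjusted p = 0.0445), both of which encode fibroblast growth factors. The size for Fgf21 hangs on the 1 added before the logarithm, and was 3.94 with 0.1 added. Both calls were lost with no filter (adjusted p = 0.0908 for each) and with the compared groups alone (0.127 and 0.134). Neither gene passed without control 4 (adjusted p = 0.0779 and 0.0965), nor without control 1 or 2 or knockout 2. Without knockout 1 or 4 Fgf1 did not pass, and without control 3 Fgf21 did not (adjusted p 0.0713 to 0.122).

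Few genes of sprouting and of the response to low oxygen passed at 30 °C. Their counts lie near the 8.82% higher and 5.28% lower of all genes. Of 14 tested tip cell genes 2 were higher at 30 °C, Plaur (1.89, SE 0.40, adjusted p = 0.00875), which encodes the urokinase receptor and is also abundant in macrophages, and Cxcr4 (0.68, SE 0.21, adjusted p = 0.0461), a chemokine receptor gene. One was lower, Aplnr (-1.67, SE 0.44, adjusted p = 0.0239), which encodes the apelin receptor. Of 14 oxygen genes 2 were higher, Ero1l (1.48, SE 0.40, adjusted p = 0.0270), an oxidase gene of protein folding, and Slc2a1 (0.68, SE 0.17, adjusted p = 0.0206), the glucose transporter gene. One was lower, Bnip3 (-0.63, SE 0.17, adjusted p = 0.0247), which acts in the removal of mitochondria. Leaving out 1 animal gave 1 to 3 calls on the first list and 0 to 4 on the second, so that only Plaur held throughout. The counts fell to 1 on the first list without knockout 1 or 3 or control 1 or 2. On the second they fell to 0 without knockout 3 or control 1 or 2 and to 1 without knockout 1 or control 3. None of either list passed at 22 °C. Of 11 mural cell markers and 4 tested lymphatic markers none passed in either knockout comparison.

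Temperatures were also compared within each genotype. The sexes differ between the temperatures, as given above. Fold changes between the temperatures also followed the GC content of transcripts, as Spearman's rho over 13014 genes was -0.57 for controls and -0.49 for knockouts. In the knockout comparisons it was 0.06 and 0.12. Across genes these values are a description, since genes are not independent replicates.

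In controls 2 of the 9 genes were lower at 22 °C than at 30 °C and none higher, beside 38.8% of all genes called in either direction and 20.6% called as lower. They were Dll4 (-1.08, SE 0.28, adjusted p = 0.00932) and Tie1 (-0.78, SE 0.29, adjusted p = 0.0448). Ranges did not overlap for 3 of the 9, Dll4 and Vegfa lower and Flt1 higher, beside 43.5% of all genes. Without control 4, 5 of the 9 were lower, adding Cdh5 (-0.91), Pecam1 (-0.76) and Notch1 (-0.49). Over all genes the calls in either direction then numbered 5742, against 5072 with that animal. With the relation to GC content removed none of the 9 passed, beside 2965 of all genes, and Dll4 had -0.75 (adjusted p = 0.0773). With the endothelial score as a covariate both calls were lost (Dll4 -0.64, adjusted p = 0.155, and Tie1 -0.06, adjusted p = 0.843). Flt1 (1.19, adjusted p = 0.00107) and Tek (0.75, adjusted p = 0.00845) were then called higher, beside 2476 genes called in all. The score itself had a mean of 3.79 in controls at 22 °C and 4.32 at 30 °C. The slope of this covariate leans on control 4, as given above, and its part was not tested. Tie1, but not Dll4, lost its call without control 1, 2 or 3 at 22 °C or any 1 control at 30 °C (adjusted p 0.0780 to 0.128).

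In knockouts 3 of the 9 passed, beside 51.1% of all genes, 21.8% as higher and 29.4% as lower. Flt1 was higher at 22 °C (0.66, SE 0.24, adjusted p = 0.0335), and Dll4 (-0.87, SE 0.28, adjusted p = 0.0191) and Notch1 (-0.77, SE 0.23, adjusted p = 0.0133) were lower. Dll4 and Notch1 lost their calls without knockout 2 at 30 °C (adjusted p = 0.0934 and 0.0562), and Flt1 lost its call without knockout 1 or 3 at either temperature (adjusted p 0.0599 to 0.113). Ranges did not overlap for 5 of the 9, beside 55.8% of all genes. With the relation to GC content removed, Flt1 (0.63, adjusted p = 0.0478) and Vegfa (0.68, adjusted p = 0.00533) were higher and none was lower. Over all genes 5366 passed in that fit, against 6689 in the main one. With the endothelial score as a covariate Dll4 and Notch1 lost their calls as well (-0.36 and -0.11, adjusted p = 0.429 and 0.613). Under the same covariate Flt1 (1.35), Tek (1.07), Cdh5 (0.59) and Pecam1 (0.57) were called higher (adjusted p 0.000689 to 0.0154). Without scaling Flt1 lost its call (0.56, adjusted p = 0.0805) and Tie1 was called lower (-0.79, adjusted p = 0.0466). Of the 11 Notch targets, 5 were lower at 22 °C in controls and 8 in knockouts, and of the 30 other endothelial genes 13 and 12, with 2 higher in each. Macrophage markers moved the same way, with 8 and 12 of 12 lower, and their part was not tested. Nrarp was lower at 22 °C by both accounts, with -1.77 (SE 0.19) in controls and -3.46 (SE 0.19) in knockouts, and with -1.53 and -3.19 after the GC relation was removed.

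Counting could blur a few of these values. In GENCODE M21 the exons of Nrarp overlap those of Gm38287 on the other strand, those of Dll4 overlap Gm14207, and those of Notch1 overlap 0610009E02Rik and Gm13568. Whether the counting used strand is not given in the sources used here, so reads of such pairs cannot be told apart. In the deposited table Gm14207 had 0.691 to 3.29 FPKM, 0610009E02Rik 0.0606 to 0.732 FPKM and Gm13568 at most 0.282 FPKM. Gm38287 has no value there.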

How the data were processed

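RNA sequencing of brown adipose tissue was deposited by the authors as FPKM, with 1 column for each of 14 animals and no other column of sample values. The submitters' processing notes name mm9; aligner, counter, annotation and strand use are not given in the sources used here. GENCODE M21 gave symbols (34490 of 35275 genes), lengths and GC content. The steps of low FPKM values gave the depth: 91.8% to 93.4% of low values of genes with 1 transcript were whole fragments, to within 0.1.

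Genes with FPKM of at least 1 in at least 3 animals were kept. Libraries were divided by the median ratio to the geometric mean over 10049 nuclear genes (factors 1.05 to 1.20 in knockouts and 0.82 to 0.95 in controls), and log2(scaled FPKM + 1), which understates changes of low genes, was fitted with limma 3.58.1 (R 4.3.3; lmFit, eBayes with trend), 1 mean per group over all animals, with Benjamini-Hochberg adjustment over 13079 genes. The code was tested on simulated data. Plots used Python 3.11.15 and matplotlib 3.10.9. Motifs were searched in 250-base windows of the RefSeq promoter table.

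The 10 genes and the lists were chosen with earlier results of these data known, so no count over them is independent support. Named were the 10 genes, at most 3 called genes with the largest change per list and knockout comparison, a few fixed genes (Thbs1, Hes1, Hey1, Heyl, Notch4, Jag1, Angpt2, Vegfb), the 3 genes most like Nrarp, its neighbours in rank, and Lrpprc; Ddx3y, Xist and the antisense genes were added after their values were seen. Alternatives covered the pseudocount, filter, scaling, model, covariates, groups fitted and animals left out; removal of GC content was added after seeing the data.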

Additional observations from a re-analysis of the deposited data

Results flagged for a closer look

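In the 24 sets of 4 animals tested at 22 °C (the 10 genes, the endothelial score and the mural cell score, each in controls and knockouts), the highest or lowest animal stood far from the others in 2. Flt1 was 51.0 FPKM in control 4 against 19.8 to 24.5 FPKM in the other 3 controls, a gap of 0.85 of the whole range. Pecam1 was 61.5 FPKM in the same animal against 25.7 to 31.4 FPKM, a gap of 0.84 of the range. Both shares exceed the critical value of Dixon's test for 4 animals, which chance passes in about 1 of 20 sets. The groups at 30 °C have 3 animals each and were not tested in this way.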

How the results depend on the processing

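Values here are log2 differences unless given as counts. No paired analysis was possible because the labels give no replicate numbers and nothing that ties animals of different groups. Values of the 10 genes were compared with the main ones by direction and side of the threshold, and those of Nrarp, which has no test, by direction and size. Under settings other than leaving out an animal, 599 stayed the same and 30 changed direction. A call was gained in 23 and lost in 13, and 5 values of Nrarp moved in size. With 1 animal left out 373 stayed the same, 28 changed direction, 7 gained a call and 12 lost one. Of the 9 genes, the number that passed at 22 °C in knockouts was 0, and 1 with FPKM as deposited. At 30 °C it was 0, but 1 with FPKM as deposited, with sample weights or with the compared groups alone, and 2 with the endothelial covariate. Over all genes 258 passed at 22 °C, and 3248 with FPKM as deposited. At 30 °C 1845 genes passed, against 4571 as deposited and 3652 with sample weights. It was 1233 with the compared groups alone and 2215 with the endothelial covariate. Between temperatures in controls 2 of the 9 passed, but 1 with no filter, with quantile normalization or with the compared groups alone. The number was 7 with sample weights, 0 with GC content removed and 5 without the 2 controls with R titles. With 1 animal left out it was 1 to 5. In knockouts it was 3, but 2 with no filter or with GC content removed, 5 with sample weights or with the compared groups alone, and 2 to 3 with 1 animal left out. The endothelial covariate gave 2 in controls and 4 in knockouts. Over all genes 5072 passed between temperatures in controls, 7568 with sample weights, 2965 with GC content removed and 2476 with the endothelial covariate. It was 6102 without the 2 controls with R titles and 4094 with the compared groups alone. In knockouts 6689 genes passed, 7880 with sample weights, 5366 with GC content removed and 3439 with the endothelial covariate.

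Direction changed for these genes. In knockouts at 22 °C, Kdr was -0.017 with the muscle covariate. Flt1, Tie1 and Tek were 0.14, 0.18 and 0.19 as deposited, and 0.064, 0.32 and 0.094 without the 2 controls with R titles. Tie1 and Tek were 0.027 and 0.045 with equal totals, and 0.17 and 0.028 with sample weights. In knockouts at 30 °C with FPKM as deposited, Vegfa was 0.0041, Kdr 0.056, Flt1 0.068, Pecam1 0.14, Cdh5 0.014, Tie1 0.087, Dll4 0.22, Jag1 0.19 and Angpt2 0.14. With equal totals Dll4 was 0.087, Jag1 0.067 and Angpt2 0.069. Heyl was -0.069 with quantile normalization and -0.057 with GC content removed, where Notch4 was -0.17. Between temperatures in controls, the endothelial covariate gave Kdr 0.44, Pecam1 0.080, Cdh5 0.078 and Notch1 0.32, and GC removal gave Vegfa 0.045 and Notch1 0.15. In knockouts the covariate gave Pecam1 0.57, Cdh5 0.59 and Tie1 0.14, quantile normalization gave Pecam1 0.011 and GC removal gave Cdh5 0.042.

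With 1 animal left out, direction changed at 22 °C for Cdh5 (-0.038 to 0.43), Flt1 (-0.29 to 0.12), Kdr (-0.16 to 0.24), Notch1 (-0.10 to 0.31), Nrarp (-0.14 to 0.18), Tek (-0.23 to 0.17) and Tie1 (-0.33 to 0.20). At 30 °C it changed for Dll4 (-0.46 to 0.19), Heyl (-0.065 to 0.14), Notch4 (-0.0059 to 0.23) and Angpt2 (-0.054 to 0.047). In the difference of the effects it changed for Dll4 (-0.036 to 0.62), Flt1 (-0.071 to 0.34) and Tie1 (-0.12 to 0.41). Between temperatures it changed for Kdr (-0.34 to 0.065 in controls, -0.054 to 0.47 in knockouts) and Tek in controls (-0.068 to 0.33).

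In the lists at 30 °C, settings other than leaving out an animal gave 2 to 10 calls for the 30 endothelial genes, 2 to 5 for VEGF genes, 0 to 3 for Notch ligands and receptors, 2 to 5 for Notch targets, 1 to 14 for the machinery, 2 to 6 for tip cell genes and 2 to 7 for oxygen genes, against 2, 2, 0, 2, 3, 3 and 3. At 22 °C they gave 0 to 5 for the machinery and for the secreted factors, 0 to 4 for oxygen genes and 0 to 3 for tip cell genes, against 0, 2, 0 and 0. The causes of these changes were not tested. The number of animals limits the precision: the 95% interval of Cdh5 in knockouts at 30 °C ran from -0.87 to 0.31.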
